A study of Mus musculus with 21 samples.

Results

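The 10 genes Ezh2, Ezh1, Eed, Suz12, Jarid2, Mtf2, Rnf2, Cbx7, Cbx2 and Pcgf6, which encode subunits and cofactors of the Polycomb repressive complexes, were followed through the differentiation of mouse embryonic stem cells (ESCs) that lacked Cxxc5 and of wild type ESCs. They were chosen by name as members of these complexes, and were 10 of 24458 genes in the expression table. RNA sequencing had been performed on knockout (KO) and wild type (WT) cells at days 0, 3 and 6 of embryoid body formation, with 2 libraries per genotype and day and 12 libraries in all. Cxxc5, also named Rinf, is a CXXC zinc finger gene, and its product can bind CpG dinucleotides that are not methylated. The title of the study places it in the control of the pluripotency network.

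KO embryoid bodies carried a null Cxxc5 genotype per the labels, and the sources used here do not give the part of the gene that was deleted. WT embryoid bodies came from lines of the same V6.5 background, a hybrid of the 129 and C57BL/6 strains. Each genotype was represented by 2 independent ESC lines, so the p-values measure a spread between samples, lines included, that is shared by all 6 groups. Where the line is a block below, the replicate number within a genotype was assumed to stand for the line. The stem cells of both genotypes had been kept in serum with LIF, the cytokine that sustains self-renewal, and were aggregated in hanging drops. An embryoid body is a mixed aggregate of many cell types, so fewer cells of a type and less RNA per cell cannot be told apart in these values.

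Polycomb group proteins keep developmental genes silent in stem cells. Polycomb repressive complex PRC2 methylates a lysine in the tail of histone H3, through the alternative catalytic subunits Ezh2 and Ezh1, which need Eed and Suz12 to be active. PRC1 adds ubiquitin to histone H2A through Rnf2 or its paralogue Ring1, and its canonical forms are brought to the methylated histone by a Cbx subunit, whereas variant forms such as the one built on Pcgf6 lack the Polycomb-type Cbx subunits Cbx2 and Cbx7. In mouse ESCs Cbx7 is the best known Cbx subunit, and Cbx2 is known for taking its place as cells differentiate.

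The deposited unit of the authors, FPKM, divides the fragments of a gene by transcript length and by the mapped fragments of the library, and all levels here are in that unit. Cxxc5 itself was lower in each of the 6 KO libraries, at 5.05 to 11.9 FPKM, than in any of the 6 WT libraries, at 25.1 to 52.3 FPKM, with log2 fold changes of -1.74, -2.30 and -2.01 at days 0, 3 and 6 (SE 0.20, limma adjusted p = 0.0173, 0.00412 and 4.26e-04). Depth estimated from the steps between low values ran from 15.1 to 32.4 M reads per library. All 10 Polycomb genes passed the minimum mean of 1 FPKM that defined the 12472 genes tested, and the member with the fewest reads behind it, Cbx2, rested on at least 122 reads per kilobase in every library. The 10 pluripotency markers looked at, Pou5f1 and Nanog among them, were all detected at day 0, in libraries labelled as embryoid bodies of day 0. They summed to 3788 and 3868 FPKM in KO, against 3815 and 3883 FPKM in WT libraries. Differences were tested with limma on log2(FPKM + 1) over all 12 libraries and all genes tested, and a gene is called changed at a Benjamini-Hochberg adjusted p under 0.05. Fold changes on that scale understate the change of low genes.

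Averaged over the 12 libraries, Jarid2 was the most abundant of the 10 transcripts at 94.4 FPKM, above 93.3% of the genes tested. Suz12 averaged 75.8, Ezh2 72.0, Mtf2 65.6, Eed 63.1, Rnf2 42.5, Cbx7 36.9 and Pcgf6 32.0 FPKM. Cbx2 at 15.7 FPKM and Ezh1 at 8.96 FPKM stood lowest, Ezh1 below the median of the genes tested. The widest range between libraries was that of Cbx7, whose highest value was 4.42 times its lowest, and the narrowest was that of Ezh1, at 1.67 times. The means of Suz12 and Ezh2, and those of Mtf2 and Eed, differed by less than the range of either gene between libraries.

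**Figure D1:**
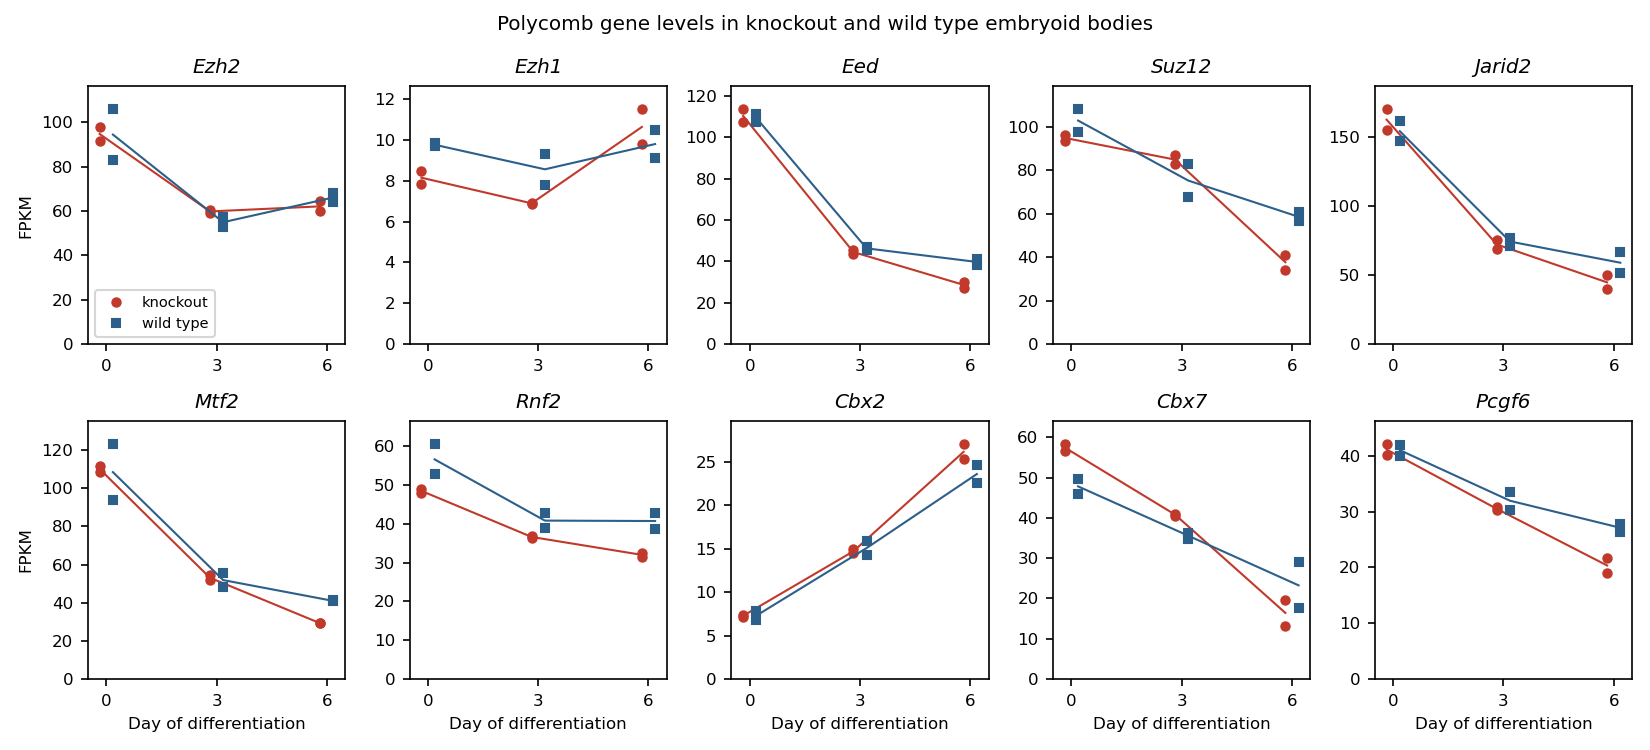
FPKM of the 10 Polycomb genes (vertical axis, from 0, a scale of its own in each panel) against day of differentiation (horizontal axis); circles are KO libraries, squares are WT libraries, and lines join the means of 2 libraries. Eed, Jarid2 and Mtf2 drop steeply by day 3 in both genotypes, and Cbx2 climbs throughout. At day 6 the KO circles of Eed, Suz12, Jarid2, Mtf2, Rnf2 and Pcgf6 lie below the WT squares.

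The catalytic subunits behaved unlike each other. Ezh2 (chromosome 6, 47530274 to 47595270 in mm10), the main methyltransferase of dividing cells, stood at 91.3 and 98.1 FPKM (day 0), 59.0 and 60.6 (day 3) and 64.3 and 59.9 (day 6) in KO embryoid bodies. In WT embryoid bodies it stood at 106 and 83.2 FPKM (day 0), 57.2 and 52.7 (day 3) and 63.9 and 68.3 (day 6). All day 3 libraries lay below all day 0 libraries, while KO and WT libraries overlapped at days 0 and 6 and KO lay just above WT at day 3. Ezh2 was lower at day 3 than at day 0, by a log2 fold change of -0.65 (SE 0.11, adjusted p = 0.00103) in KO and -0.76 (SE 0.11, adjusted p = 3.85e-04) in WT. Over all 12 libraries the step to day 6 passed the threshold in neither genotype (0.052 in KO, 0.26 in WT). The WT step ran from 0.20 to 0.37 over 18 alternative fits and passed in 4 of them, and the KO step passed in 0. The KO difference in Ezh2 was 0.013 at day 0, 0.12 at day 3 and -0.089 at day 6 on the log2 scale, each with an SE of 0.11 and an adjusted p of 0.987, 0.634 and 0.537.

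Ezh1 (chromosome 11, 101191115 to 101226463), the paralogue known for cells that divide little, stood at 8.45 and 7.84 FPKM (day 0), 6.90 and 6.88 (day 3) and 9.78 and 11.5 (day 6) in KO. The WT values were 9.84 and 9.68 FPKM (day 0), 7.81 and 9.31 (day 3) and 9.09 and 10.5 (day 6). The KO libraries were the lower ones at days 0 and 3 and overlapped the WT libraries at day 6. None of the 3 genotype differences in Ezh1 passed the threshold (log2 fold changes of -0.24, -0.27 and 0.11 at days 0, 3 and 6, adjusted p = 0.342, 0.265 and 0.447), with the one at day 3 at an unadjusted p of 0.0286. Between days 3 and 6 Ezh1 rose in KO by a log2 fold change of 0.56 (SE 0.10, adjusted p = 0.00199). In WT the same step was 0.18 (adjusted p = 0.208), and the difference between the 2 steps did not pass the threshold (0.38, SE 0.15, adjusted p = 0.156).

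The ratio of Ezh2 to Ezh1 within a library, both per length, was 10.8 and 12.5 (day 0), 8.55 and 8.80 (day 3) and 6.58 and 5.21 (day 6) in KO. In WT the ratio was 10.8 and 8.59 (day 0), 7.33 and 5.66 (day 3) and 7.03 and 6.50 (day 6). KO ratios were lower on each later day with no overlap between days, whereas the WT ratios of days 3 and 6 overlapped.

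Eed (chromosome 7, 89954654 to 89980976), the subunit that binds the methylated histone and stimulates the enzyme, had the steepest fall of the 10 genes by day 3. Its level was 107 and 113 FPKM (day 0), 43.7 and 45.3 (day 3) and 30.3 and 27.1 (day 6) in KO. In WT it was 107 and 111 FPKM (day 0), 45.6 and 47.0 (day 3) and 41.0 and 38.4 (day 6). The genotypes overlapped at day 0, lay close together at day 3 with KO just below, and were apart at day 6 with both KO libraries lower. Day 3 differed from day 0 by a log2 fold change of -1.29 in KO (SE 0.066, adjusted p = 4.15e-06) and -1.22 in WT (SE 0.066, adjusted p = 3.11e-06). From day 3 to day 6 Eed fell by 0.62 in KO (adjusted p = 1.81e-04) and by 0.22 in WT (adjusted p = 0.0338), and at day 6 the KO mean was 72.2% of the WT mean.

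Suz12 (chromosome 11, 79993106 to 80034123), the scaffold that holds PRC2 together, followed another course. Its level was 96.2 and 93.7 FPKM (day 0), 82.8 and 87.1 (day 3) and 41.2 and 34.3 (day 6) in KO. In WT it was 108 and 97.8 FPKM (day 0), 67.7 and 83.0 (day 3) and 60.8 and 56.5 (day 6). The KO libraries thus held most of their Suz12 until day 3 and were the lowest of all 12 libraries at day 6, and 1 WT library of day 3 overlapped the KO range. The first step was -0.45 in WT (SE 0.11, adjusted p = 0.00840) and -0.16 in KO (SE 0.11, adjusted p = 0.265), and the 2 steps did not differ past the threshold (interaction 0.29, SE 0.16, adjusted p = 0.749). Under quantile normalization, which forces every library to the same distribution, the KO step was 0.062 and the WT step no longer passed (-0.26, adjusted p = 0.102), and the WT call was also lost without WT day 0 replicate 1 (adjusted p = 0.0563) or WT day 3 replicate 1 (adjusted p = 0.0653). From day 3 to day 6 Suz12 fell by 1.15 in KO (SE 0.11, adjusted p = 1.28e-04) and by 0.35 in WT (SE 0.11, adjusted p = 0.0405).

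The promoters of Eed, Suz12 and Ezh2 are shown because Cxxc5 belongs to the CpG-binding CXXC proteins and because these core subunits of one complex took different courses. The windows run from 250 bases before to 50 bases after the annotated start, come from RefSeq on GRCm38.p6, are printed 5′ to 3′ on the gene's strand, and have each CpG in capitals. They lie at chr7:89980927-89981226 for Eed (minus strand), chr11:79992856-79993155 for Suz12 (plus strand) and chr6:47594981-47595280 for Ezh2 (minus strand).
Eed: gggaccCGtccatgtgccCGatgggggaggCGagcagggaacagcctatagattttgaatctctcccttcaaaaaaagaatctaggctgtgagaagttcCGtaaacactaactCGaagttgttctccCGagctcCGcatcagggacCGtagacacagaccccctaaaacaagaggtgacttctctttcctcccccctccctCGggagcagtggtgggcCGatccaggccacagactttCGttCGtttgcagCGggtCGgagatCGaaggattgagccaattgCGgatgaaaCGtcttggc
Suz12: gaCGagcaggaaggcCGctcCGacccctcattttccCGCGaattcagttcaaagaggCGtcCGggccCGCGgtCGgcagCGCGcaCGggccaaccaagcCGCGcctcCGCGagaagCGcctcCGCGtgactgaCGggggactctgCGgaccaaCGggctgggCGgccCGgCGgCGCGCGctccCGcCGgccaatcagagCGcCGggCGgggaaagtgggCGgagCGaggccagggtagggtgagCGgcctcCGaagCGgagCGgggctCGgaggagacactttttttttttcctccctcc
Ezh2: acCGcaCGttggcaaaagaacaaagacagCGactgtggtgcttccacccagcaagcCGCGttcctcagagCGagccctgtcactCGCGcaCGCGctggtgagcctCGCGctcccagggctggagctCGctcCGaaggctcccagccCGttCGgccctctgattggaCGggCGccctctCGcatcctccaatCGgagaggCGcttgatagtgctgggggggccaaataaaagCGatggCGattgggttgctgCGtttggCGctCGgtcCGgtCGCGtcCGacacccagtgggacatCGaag

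The Suz12 window held 41 CpGs, more than 96.5% of the 32851 windows in the RefSeq table, whose median was 7. The Ezh2 window held 31 and the Eed window 17, the fewest among the first windows of the 9 genes found there. The others were Cbx7 with 33, Mtf2 and Rnf2 with 30 each, Jarid2 with 24, Ezh1 with 23 and Pcgf6 with 22. The Cbx7 window, at 79932597 to 79932896 on the minus strand, lies inside the gene interval, which ends at 79971143. Second windows that begin inside the gene held 23 for Jarid2 and 2 for Mtf2. The octamers TTTCCCGC and TTTGGCGC, which are forms of the site of the cell cycle factors of the E2F family, were searched on both strands. TTTCCCGC was present in the Suz12 window and TTTGGCGC in the Ezh2 window, neither was present in the other 9 member windows, and 1.56% of all windows held at least 1 of them. Each octamer contains a CpG and so overlaps the CpG counts.

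Of the 2 cofactors that direct PRC2 to its sites, Jarid2 (chromosome 13, 44730774 to 44921643) stood at 155 and 170 FPKM (day 0), 69.0 and 75.2 (day 3) and 49.8 and 39.6 (day 6) in KO. In WT it stood at 161 and 147 FPKM (day 0), 71.3 and 77.1 (day 3) and 66.7 and 51.2 (day 6). Genotypes overlapped at days 0 and 3, and at day 6 the higher KO library lay just below the lower WT library. Jarid2 fell by day 3 in KO (-1.16, SE 0.14, adjusted p = 2.26e-04) and in WT (-1.04, SE 0.14, adjusted p = 3.22e-04), and again by day 6 in KO (-0.69, adjusted p = 0.00316), with a value of -0.34 in WT (adjusted p = 0.0892). Its KO difference at day 6 was -0.39 (SE 0.14, adjusted p = 0.0616) and passed without WT day 6 replicate 2 (adjusted p = 0.0148) or KO day 6 replicate 1 (adjusted p = 0.0310).

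Mtf2 (chromosome 5, 108065660 to 108109219), a Polycomb-like protein that binds unmethylated CpG, stood at 108 and 112 FPKM (day 0), 51.7 and 54.6 (day 3) and 29.4 and 29.2 (day 6) in KO. The WT values were 123 and 93.9 FPKM (day 0), 48.4 and 55.4 (day 3) and 41.2 and 40.7 (day 6). The genotypes overlapped at days 0 and 3, and at day 6 replicates were almost equal within each genotype, with KO below. Its day 3 step was -1.04 in both genotypes (SE 0.11, adjusted p = 1.36e-04 in KO and 1.05e-04 in WT). From day 3 to day 6 it fell by 0.84 in KO (adjusted p = 4.7e-04), while the WT value of -0.33 had an adjusted p of 0.0508.

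In PRC1, Rnf2 (chromosome 1, 151469398 to 151500991), one of its alternative ubiquitin ligases beside Ring1, was lower in KO than in WT libraries at every day without overlap. It stood at 47.9 and 49.1 FPKM (day 0), 36.4 and 36.9 (day 3) and 31.4 and 32.6 (day 6) in KO. In WT it stood at 60.5 and 52.7 FPKM (day 0), 39.0 and 42.7 (day 3) and 38.7 and 42.8 (day 6). The log2 difference was -0.22 at day 0 (SE 0.079, unadjusted p = 0.0247, adjusted p = 0.257), -0.15 at day 3 (adjusted p = 0.404) and -0.34 at day 6 (adjusted p = 0.0136), so only day 6 passed. Rnf2 fell by day 3 in KO (-0.40, adjusted p = 0.00317) and in WT (-0.46, adjusted p = 0.00126), and its step to day 6 passed in neither genotype (-0.19 in KO, adjusted p = 0.0680, and -0.0040 in WT, adjusted p = 0.977).

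The Cbx subunits moved in opposite directions. Cbx7 (chromosome 15, 79915804 to 79971143) stood at 56.6 and 58.3 FPKM (day 0), 41.1 and 40.5 (day 3) and 19.7 and 13.2 (day 6) in KO. The WT values were 49.6 and 46.0 FPKM (day 0), 36.3 and 34.8 (day 3) and 29.0 and 17.6 (day 6). KO libraries were the higher ones at days 0 and 3 and overlapped WT at day 6, where both groups spread widely. Cbx7 fell from day 3 to day 6 in KO by 1.29 (SE 0.22, adjusted p = 0.00131), with -0.63 in WT (adjusted p = 0.0519). That WT step was -0.98 (adjusted p = 0.00510) without WT day 6 replicate 1 and -0.29 (adjusted p = 0.320) without WT day 6 replicate 2, and at -0.63 it passed without KO day 6 replicate 1 or 2 (adjusted p = 0.0362 each) and with the line as a block (adjusted p = 0.0483). The KO difference of Cbx7 was 0.26 at day 0, 0.19 at day 3 and -0.46 at day 6 (SE 0.22, adjusted p = 0.641, 0.729 and 0.132), and the one at day 6 passed without WT day 6 replicate 2 (-0.81, adjusted p = 0.0125) or KO day 6 replicate 1 (-0.74, adjusted p = 0.0455). Its steps to day 3 passed in neither genotype over all 12 libraries (-0.48 in KO, adjusted p = 0.0945, and -0.42 in WT, adjusted p = 0.138). Without the 4 day 6 libraries, which spread most, both day 3 steps of Cbx7 passed (adjusted p = 3.01e-04 in KO and 5.25e-04 in WT).

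Cbx2 (chromosome 11, 119023019 to 119031275) stood at 7.37 and 7.20 FPKM (day 0), 15.0 and 14.4 (day 3) and 25.3 and 27.0 (day 6) in KO. In WT it stood at 7.79 and 6.81 FPKM (day 0), 14.3 and 15.9 (day 3) and 22.5 and 24.7 (day 6). It was the one gene of the 10 whose libraries rose at each step without overlap between days, in both genotypes. Its steps to day 3 were 0.92 in KO and 0.95 in WT (SE 0.081, adjusted p = 4.38e-05 and 2.62e-05), and its steps to day 6 were 0.79 in KO and 0.61 in WT (SE 0.081, adjusted p = 1.55e-04 and 0.00215). KO and WT levels of Cbx2 overlapped at days 0 and 3, and the KO difference at day 6 was 0.14 (SE 0.081, adjusted p = 0.196).

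The ratio of Cbx7 to Cbx2, per length within a library, was 7.69 and 8.10 (day 0), 2.75 and 2.81 (day 3) and 0.779 and 0.488 (day 6) in KO. In WT it was 6.37 and 6.75 (day 0), 2.54 and 2.19 (day 3) and 1.29 and 0.712 (day 6). Cbx2 was therefore the more abundant of the pair in both KO libraries and in 1 of 2 WT libraries at day 6.

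**Figure D2:**
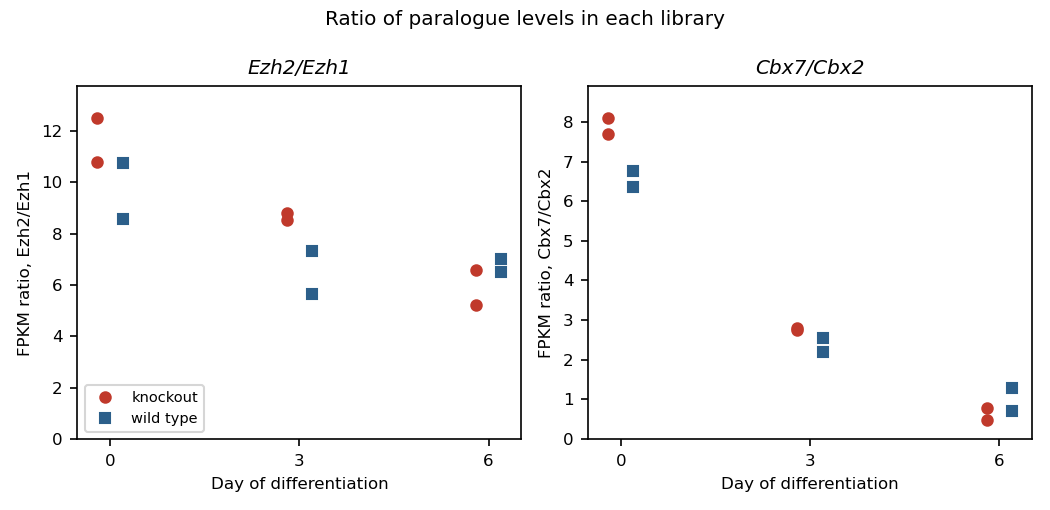
Ratio of FPKM values within each library (vertical axes, from 0) against day of differentiation for Ezh2 over Ezh1 (left) and Cbx7 over Cbx2 (right); circles are KO libraries and squares are WT libraries. Within each genotype both ratios are highest at day 0, and the Cbx7 to Cbx2 ratio lies below 1 in both KO libraries and in 1 WT library at day 6.

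Pcgf6 (chromosome 19, 47033617 to 47050939), which defines a variant PRC1 known for silencing germline genes in ESCs, stood at 40.2 and 42.1 FPKM (day 0), 30.3 and 30.8 (day 3) and 21.7 and 18.99 (day 6) in KO. The WT values were 42.0 and 40.1 FPKM (day 0), 30.4 and 33.6 (day 3) and 27.9 and 26.4 (day 6). The genotypes overlapped at days 0 and 3 and were apart at day 6, with KO lower. Its day 3 steps were -0.42 in KO (SE 0.076, adjusted p = 0.00191) and -0.35 in WT (SE 0.076, adjusted p = 0.00431, lost under quantile normalization at 0.0634). From day 3 to day 6 it fell by 0.56 in KO (adjusted p = 4.64e-04) and by 0.23 in WT (adjusted p = 0.0464).

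Across the first step, 6 of the 10 genes fell and 1, Cbx2, rose in KO, where 28.0% of all genes tested fell and 24.6% rose. In WT 7 fell and 1 rose, where 30.2% of all genes fell and 25.5% rose, the additional gene being Suz12. The median log2 change of the 10 genes was -0.45 in KO and -0.46 in WT, beside -0.021 and -0.022 for all genes tested. Across the second step, 6 fell and 2 rose in KO, where 29.9% of all genes fell and 29.2% rose. In WT 3 fell and 1 rose, where 18.4% of all genes fell and 17.4% rose, and the medians were -0.59 in KO and -0.22 in WT. The 4 WT calls of the second step were the least firm, since leaving out single libraries left between 1 and 5 calls and only that of Cbx2 held each time. The WT step of Suz12 was -0.20 (adjusted p = 0.238) without WT day 3 replicate 2, and those of Eed, Suz12 and Pcgf6 no longer passed under quantile normalization, with the line as a block, or with trends of GC content and length removed (adjusted p between 0.0570 and 0.2001).

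Between the genotypes, 0 of the 10 genes passed at day 0, when 0.369% of all genes did, and 0 at day 3, when 1.19% did. The differences ran from -0.24 for Ezh1 to 0.26 for Cbx7 at day 0 and from -0.27 for Ezh1 to 0.19 for Cbx7 at day 3. Rnf2 at day 0 and Ezh1 at day 3 were the 2 with an unadjusted p under 0.05. At day 6, Eed, Suz12, Mtf2, Rnf2 and Pcgf6 were lower in KO and 0 genes were higher, when 16.2% of all genes were lower and 17.9% were higher. The median difference of the 10 genes was 0.0085 at day 0, -0.037 at day 3 and -0.39 at day 6, against 0.021 for all genes at day 6. KO and WT libraries did not overlap for 4 of the 10 genes at day 0, when 49.8% of all genes did not, and for 5 at day 3, when 60.3% did not. At day 6 KO libraries lay below WT libraries without overlap for 6 of the 10, the 5 above and Jarid2, and above them for 1, Cbx2, when 29.3% and 34.4% of all genes did so.

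The day 6 differences of the 5 genes called were moderate in size. Suz12 differed most, at -0.63 on the log2 scale (SE 0.11, adjusted p = 0.00464), with a KO mean of 37.7 ± 4.9 FPKM against a WT mean of 58.7 ± 3.0 FPKM (SD, n = 2 each). Mtf2 differed by -0.47 (SE 0.11, adjusted p = 0.0149), Eed by -0.46 (SE 0.066, adjusted p = 0.00192), Pcgf6 by -0.40 (SE 0.076, adjusted p = 0.00609) and Rnf2 by -0.34 (SE 0.079, adjusted p = 0.0136). KO means were between 64.3% of the WT mean for Suz12 and 78.6% for Rnf2. When the 4 day 6 libraries were fitted alone, 0 of the 10 genes passed, with adjusted p between 0.0686 and 0.115 for these 5, and 115 genes of the whole table did. Mtf2 lost its call without WT day 6 replicate 1 (adjusted p = 0.0628) or KO day 6 replicate 2 (adjusted p = 0.0736), and Rnf2 without WT day 6 replicate 2 (adjusted p = 0.0508) or KO day 6 replicate 2 (adjusted p = 0.0507), so that 3 calls were left without KO day 6 replicate 2.

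**Figure D3:**
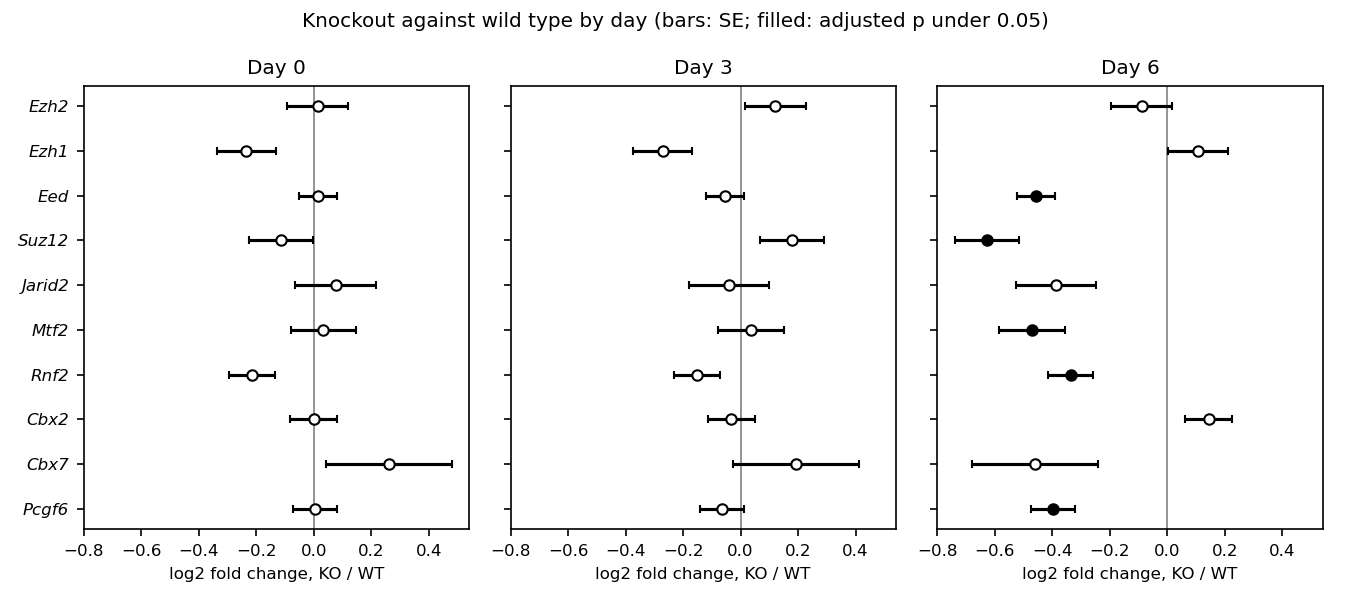
Log2 fold change of KO over WT (horizontal axis) for the 10 Polycomb genes at days 0, 3 and 6, with bars of 1 SE from limma; filled circles passed an adjusted p of 0.05. No circle is filled at days 0 and 3, and the 5 filled at day 6, from -0.63 for Suz12 to -0.34 for Rnf2, all lie below 0.

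Transcript base composition moved with the day 6 difference. Over all genes with a transcript model, the median KO difference at day 6 climbed from -0.39 in the 10% of genes poorest in G and C to 0.27 in the richest 10%, whereas at day 0 the 10 equal classes of genes ran from -0.052 to 0.056 and at day 3 from -0.11 to 0.096. Mtf2, with 38.2% G and C, and Rnf2, with 39.5%, were among the poorest 5% of genes, and Suz12 had 41.6%, against 47.8% for Eed, 44.5% for Pcgf6 and 57.6% for Cbx2. After trends with GC content and length were removed, Eed (-0.43, adjusted p = 0.00504), Suz12 (-0.36, adjusted p = 0.0433) and Pcgf6 (-0.26, adjusted p = 0.0390) still passed at day 6. Mtf2 was then at -0.025 (adjusted p = 0.851) and Rnf2 at 0.050 (adjusted p = 0.588), and the step of Rnf2 to day 6 in KO turned to 0.20 (adjusted p = 0.0222).

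The interaction tests asked whether a step differed between KO and WT. For the first step 0 of the 10 genes passed, when 0.0401% of all genes did, with values from -0.12 for Jarid2 to 0.29 for Suz12. For the second, Suz12 (-0.81, SE 0.16, adjusted p = 0.0322) and Eed (-0.40, SE 0.093, adjusted p = 0.0493) passed with a negative value, as 3.21% of all genes did. For Suz12 and Eed the negative value was a larger fall in KO. Both calls lay close to the threshold. Of the 12 fits that left out 1 library, Eed was lost in 10 (adjusted p up to 0.173) and Suz12 in 7 (up to 0.129), and both were lost with the line as a block (0.108 and 0.0780) and with the GC and length trends removed (0.0721 and 0.0746). The other 8 genes did not pass over all 12 libraries. Cbx7 (-0.66, adjusted p = 0.223), Mtf2 (-0.51, 0.107), Jarid2 (-0.35, 0.303), Pcgf6 (-0.34, 0.109), Ezh2 (-0.21, 0.399) and Rnf2 (-0.18, 0.329) had the same sign, and Ezh1 (0.38, 0.156) and Cbx2 (0.18, 0.360) the other. Cbx7 passed without WT day 6 replicate 2 (-1.0004, adjusted p = 0.0302), Pcgf6 without KO day 6 replicate 1 (adjusted p = 0.0456), and Mtf2 without WT day 0 replicate 1 or 2 (adjusted p = 0.0300 and 0.0298).

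A wider list held Polycomb components, the enzymes that oppose them and members of the complexes of those enzymes. With the 10 genes left out, it had 49 genes in the table, of which 45 were tested. At day 0 none passed between the genotypes in limma. At day 3, when 1.19% of all genes passed, the 1 of the list that did was Phf19, a Polycomb-like cofactor of PRC2 akin to Mtf2, at 7.98 and 10.1 FPKM in KO, against 2.83 and 3.06 FPKM in WT (log2 fold change 1.34, SE 0.22, adjusted p = 0.0340). Phf19 was also the higher in both KO libraries at day 0, at 10.01 and 11.97 FPKM against 5.45 and 5.77 FPKM in WT (0.85, adjusted p = 0.138), and at day 6 it was near 2 FPKM or below in all 4 libraries. Mtf2 and Phf19 thus passed the threshold between the genotypes at different days, Phf19 at day 3 and Mtf2 at day 6. The Mtf2 call was lost with GC and length trends removed, and the Phf19 call was not followed through the alternative fits.

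At day 6, 10 of the 45 genes were higher in KO and 8 were lower, shares near the 17.9% and 16.2% of all genes tested, with a median of 0.082. The genes named next describe the list only. Within PRC2, the cofactors Phf1 (0.52, adjusted p = 0.0118) and Epop (0.48, adjusted p = 0.00961) were higher in KO, and Aebp2 (-0.37, adjusted p = 0.0102) and the histone-binding subunit Rbbp4 (-0.36, adjusted p = 0.00198) were lower. Phf1, a further Polycomb-like protein, stood at 4.67 and 5.70 FPKM in KO, against 2.88 and 3.77 FPKM in WT, while Rbbp4 stood at 68.8 and 71.3 FPKM in KO, against 93.4 and 86.8 FPKM in WT. Canonical PRC1 had 1 further change, the higher Phc2 (0.33, adjusted p = 0.0121). In variant PRC1, Bcorl1 (0.75), Fbrs (0.51) and Bcor (0.50) were higher and 5 genes, Skp1a (-0.45) the most, were lower. Of the opposing enzymes and members of their complexes, the histone demethylase gene Kdm6b (0.62, adjusted p = 0.0226) was higher. Foxk1 (0.80), Mbd6 (0.67) and Asxl3 (0.45) of the histone deubiquitinase complex were also higher, and 1 further gene was lower. With the 10 Polycomb genes counted in, the calls within each complex ran in both directions, in canonical PRC1 with 1 gene higher (Phc2) and 1 lower (Rnf2). The Rnf2 call was lost with GC and length trends removed. The genes named here from outside the 10 were not followed through the alternative fits.

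**Figure D4:**
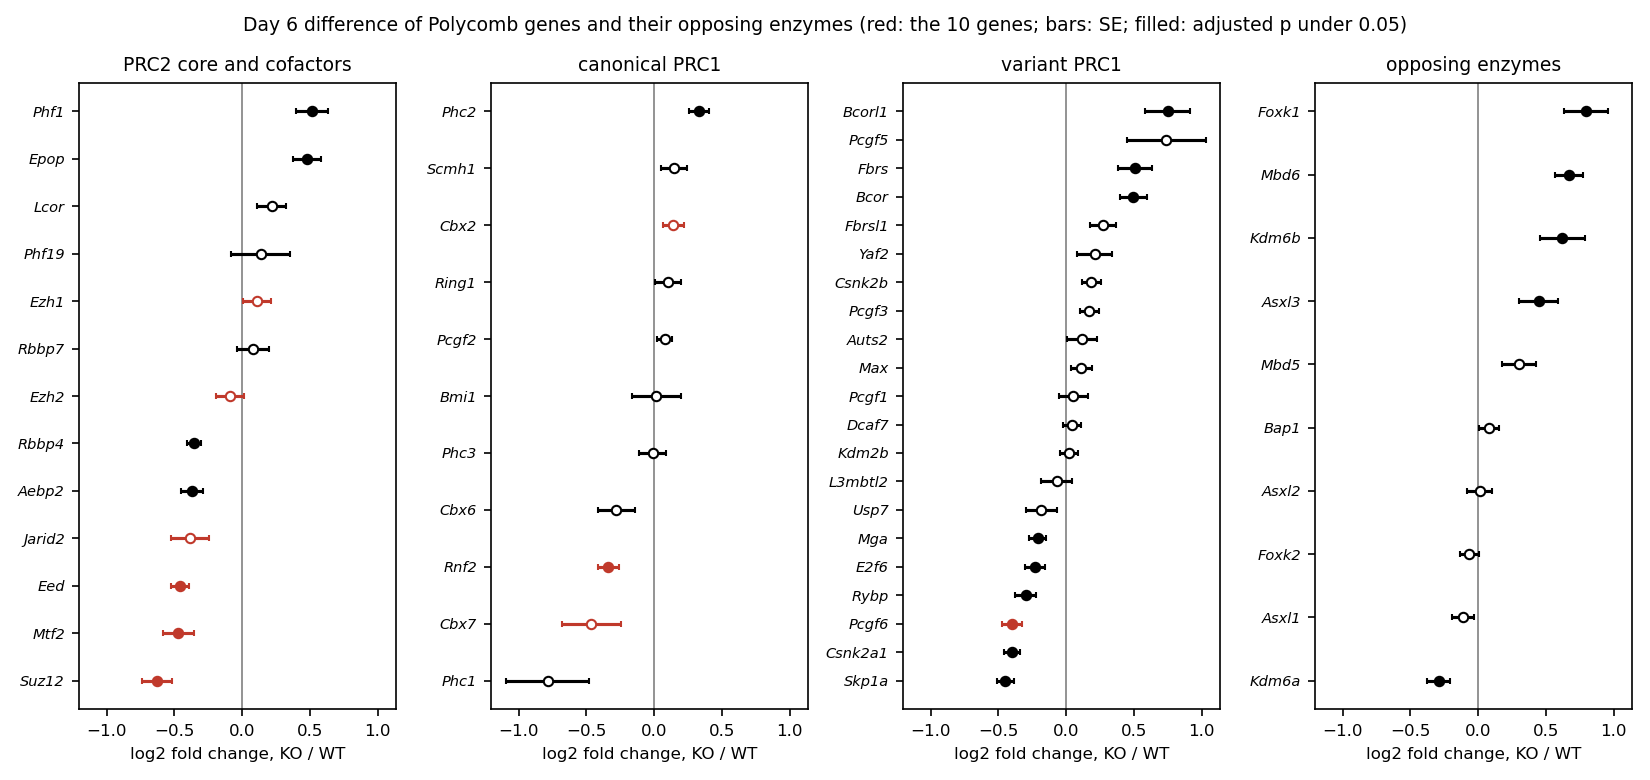
Log2 fold change of KO over WT at day 6 (horizontal axis) for the tested genes of PRC2, canonical PRC1, variant PRC1 and the opposing enzymes with members of their complexes. Bars are 1 SE, red marks the 10 Polycomb genes and filled circles passed an adjusted p of 0.05. PRC2 genes run from -0.63 for Suz12 to 0.52 for Phf1, with Ezh2 and Ezh1 near 0. In the panel of opposing enzymes and members of their complexes, 4 of the 5 genes that passed lie above 0. Of all genes tested, 17.9% were higher and 16.2% lower.

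Over time the same list also split. Phc2, a canonical PRC1 subunit, rose at both steps in KO (1.26 and 1.12) and in WT (1.19 and 0.72), as Cbx2 did. Yaf2, a variant PRC1 subunit, rose by day 3 (1.81 in KO and 1.69 in WT, adjusted p = 1.66e-05 and 1.59e-05), and Epop fell (-0.91 in KO and -1.34 in WT, adjusted p = 1.63e-04 and 1.7e-05). Phf19 fell from day 3 to day 6 in KO by 1.88 (adjusted p = 2.58e-04) and in WT by 0.68 (adjusted p = 0.0419). By day 3, 12 genes of the 45 rose and 9 fell in KO, where 24.6% of all genes rose and 28.0% fell, and 9 rose and 10 fell in WT, where 25.5% rose and 30.2% fell. From day 3 to day 6, 17 rose and 15 fell in KO, where 29.2% of all genes rose and 29.9% fell, and 10 rose and 11 fell in WT, where 17.4% rose and 18.4% fell.

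Of 24 developmental regulators known as Polycomb targets in ESCs, 17 passed the expression minimum, which they did mainly through day 6. All 24 together summed to 26.0 and 28.7 FPKM at day 0 in KO, against 25.4 and 25.7 FPKM in WT, and to 288 and 448 FPKM at day 6 in KO, against 70.6 and 199 FPKM in WT. At day 6 the mesoderm genes Hand1 (3.44, adjusted p = 0.0379) and Msx1 (2.37, adjusted p = 0.00494), the caudal homeobox gene Cdx2 (2.20, adjusted p = 0.00653) and the endoderm and heart gene Gata4 (1.70, adjusted p = 0.0317) were among the 6 higher in KO, and 1 was lower, when 17.9% and 16.2% of all genes were. Hand1 stood at 137 and 236 FPKM in KO, against 2.67 and 74.6 FPKM in WT, so the WT replicates lay far apart. Hand1 alone was thus a large part of the day 6 target sums in both KO libraries and in 1 WT library. Hand1 is also among the mesoderm markers below and Gata4 among the extraembryonic endoderm markers, so those sums share values with the target sums. The target genes passed the minimum through the libraries where they are high, so their count is given as a description.

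Markers of cell types moved along with the day 6 differences of the Polycomb genes. The 10 mesoderm markers summed to 559 and 657 FPKM in KO, against 62.8 and 323 FPKM in WT, and the 10 extraembryonic endoderm markers to 252 and 369 FPKM in KO, against 138 and 213 FPKM in WT. The 10 pluripotency markers summed to 886 and 485 FPKM in KO, against 1238 and 772 FPKM in WT, and the 10 neural markers to 59.6 and 33.9 FPKM in KO, against 111 and 72.8 FPKM in WT. Markers of feeder fibroblasts, on which ESCs are often grown, summed to 17.2 and 32.0 FPKM in KO, against 9.87 and 15.4 FPKM in WT, and stayed the lowest of these sums. WT day 6 replicate 1, with the highest pluripotency and neural sums of day 6, also had the highest Cbx7, Jarid2, Eed, Suz12, Mtf2 and Pcgf6 of the day 6 libraries, and KO day 6 replicate 2, with the lowest, also had the lowest of each. Of the libraries between them, KO replicate 1 had the higher pluripotency sum and the higher Cbx7, at 19.7 against 17.6 FPKM. WT replicate 2 had the higher neural sum and the higher Jarid2, Eed, Suz12, Mtf2 and Pcgf6. The other 4 Polycomb genes differed in the highest or the lowest library. Rnf2 was highest in WT replicate 2 and lowest in KO replicate 1, and Ezh2 was highest in WT replicate 2 and lowest in KO replicate 2. Ezh1 and Cbx2 were highest in KO replicate 2 and lowest in WT replicate 1. The part of cell type makeup in the Polycomb differences was not tested.

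Of 12 proliferation genes, 0 were higher and 4 were lower in KO at day 6, when 17.9% of all genes were higher and 16.2% lower. The 4 were Ccnb1 (-0.61, adjusted p = 0.00142), Bub1 (-0.57, adjusted p = 0.00374), Top2a (-0.43, adjusted p = 0.00407) and Pcna (-0.28, adjusted p = 0.0185). Summed, the 12 stood at 1197 and 1106 FPKM in KO, against 1374 and 1254 FPKM in WT. By day 3, 9 of the 12 had fallen in KO, where 28.0% of all genes fell, and 9 in WT, where 30.2% did. The part of proliferation in the levels of Ezh2 and its partners was not tested.

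The genes whose course over the 12 libraries was most like that of a Polycomb gene were ranked by Pearson correlation of log2(FPKM + 1), as a description. All points share the day of differentiation. Nearest to Ezh2 were Snapc3 (0.987), Ska1 (0.976) and Cenpe (0.976), and nearest to Ezh1 were Med24 (0.967), Pitpna (0.958) and Mapkap1 (0.934). Nearest to Cbx7 were B3gnt7 (0.995), Etv5 (0.993) and Zbtb8a (0.989), and nearest to Jarid2 were Rbpj (0.996), Tipin (0.996) and Ttf2 (0.995). Among the 10 genes themselves, Eed and Jarid2 had a correlation of 0.990, Eed and Cbx2 of -0.970, and the paralogues Ezh2 and Ezh1 of 0.093.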

How the data were processed

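Total RNA of 12 embryoid body libraries had been sequenced as single-end reads. Trim Galore 0.4.1, TopHat2 2.0.13, Cufflinks 2.2.1, Cuffdiff and HTSeq 0.6.1 and the build mm10 are named per the submitters' processing notes, and trimming, then mapping with TopHat at default settings, per the labels' design text. The sources used here do not say which tool made the values, with which annotation, or whether strand was used. The FPKM values are those the authors deposited; the 92 ERCC spike-in rows hold 0 in every library, and library medians span 0.0069 on the log2 scale, so the values had been scaled to one another. No pair of libraries shared more than 3 values above 0. Depth was estimated from the steps of 1 read between low values, of which 45.8% to 53.7% per library lay within 0.1 of a whole read (20% with no steps), too few to recover counts.

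Columns were matched to samples by genotype, replicate and day. limma 3.58.1 in R 4.3.3 was run on log2(FPKM + 1), pseudocount 1, with 1 mean for each of the 6 groups and a variance trend, two-sided, over 12472 genes with a mean of at least 1 FPKM, with Benjamini-Hochberg adjustment over all of them (threshold 0.05) and 6 residual degrees of freedom. An exact permutation test of 2 against 2 libraries cannot give a p under 0.333. The procedure was tested on simulated data. The 9 comparisons were KO against WT on each day, consecutive days within each genotype, and the interactions of both. The alternatives were another pseudocount (0.1), no filter, quantile normalization, a block, only the libraries compared and each library left out. The block was the replicate number for KO against WT. For steps and interactions it was the replicate number within a genotype, assumed to stand for the line. Fits without day 6 and with GC and length trends removed (loess on the longest GENCODE transcript, 12242 genes, 10 of 10 Polycomb genes) were chosen after seeing the data.

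The Polycomb genes and all lists were chosen with earlier results of these data known. The rule for named genes took all 10 in every comparison, Cxxc5, and of each further list up to 4 genes past the threshold with the largest change; values that missed the threshold are given in part as ranges, and the further lists are named from for some comparisons only; and for Ezh2, Ezh1, Cbx7 and Jarid2 the 3 most correlated genes. Of the 10 genes, 9 matched a RefSeq promoter by symbol. Not analysed here are the ChIP-seq samples and a separate ESC table, whose 6 sets of per-library values (3 per condition) could not be matched to the 2 labelled ESC libraries per genotype.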

Additional observations from a re-analysis of the deposited data

Results flagged for a closer look

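The change from day 3 to day 6 differed between KO and WT, by the interaction test in limma, for 2 of the 10 Polycomb genes. Both values were negative, and 3.21% of all genes tested passed with a negative value. The difference of the log2 steps was -0.81 for Suz12 (adjusted p = 0.0322, with both KO libraries below both WT libraries at day 6) and -0.40 for Eed (adjusted p = 0.0493, likewise), and both calls were lost in most fits that left out 1 library.

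Of the 45 other genes tested in the wider list, 1 passed the same test, beside 3.21% of all genes with a negative value. This was Skp1a of variant PRC1, at -0.44 (adjusted p = 0.0328), with 169 and 169 FPKM in KO, against 240 and 222 FPKM in WT, at day 6. Of the 12 proliferation genes 1 passed, the cyclin gene Ccnb1, at -0.55 (adjusted p = 0.0373), with 82.4 and 76.6 FPKM in KO, against 132 and 113 FPKM in WT, at day 6. Neither Skp1a nor Ccnb1 was followed through the alternative fits. Over all genes, the 562 calls of this test became 184 with the line as a block and 220 with only the libraries compared.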

How the results depend on the processing

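With 2 libraries per group and 6 residual degrees of freedom, the calls rest on a spread shared by all groups, so the fits depend on which libraries share it. Day 6 replicates differed more than those of days 0 and 3. The mean absolute log2 difference between replicates was 0.21 in KO and 0.25 in WT at day 6, against 0.11 to 0.17 before. Adjusted p-values of day 6 comparisons can therefore be too small. The counts of Polycomb genes called at days 0 and 3 were 0 under all alternatives and without any 1 library. At day 6 the 5 calls became 0 with only the libraries compared and 3 with GC and length trends removed, and ran from 3 to 7 as single libraries were left out. Over all genes, the day 6 count of 4249 became 115 and 2512 in those 2 fits, with 2021 to 4868 as libraries were left out. The first of these fits holds 4 libraries in place of 12 and the second keeps all 12. The cause of the lower count was not tested for either.

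The replicate block, with the replicate number or the line, took the interaction calls of the second step to 0 of the 10 genes and 184 of all genes, the day 0 count of all genes from 46 to 20, the interaction count of the first step from 5 to 1, and the WT second step to 2 of the 10 genes. Same-numbered samples had deviations correlated at -0.081 to 0.24, so the main fit did not take the numbers to pair samples. The block by line rests on the same numbers.

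Other counts moved as follows. At day 0 all genes were 111 with the pseudocount of 0.1, 28 with only the libraries compared and 488 without day 6 (8 to 184 leaving out 1 library). At day 3 the 149 were 84 with no filter, 231 with only the libraries compared, 548 without day 6 and 93 with GC and length trends removed (14 to 265). In the WT second step the 4 Polycomb calls were 2 with no filter, 2 with quantile normalization and 0 with only the libraries compared (1 to 5), and the 4476 genes were 26 (1872 to 5242). The interaction of the first step was 10, 9, 29, 29 and 2 genes with the pseudocount, no filter, only the libraries compared, without day 6 and GC and length trends removed (4 to 16). That of the second, 562 genes and 2 Polycomb genes, was 220 and 0 with only the libraries compared, 209 and 0 with GC and length trends removed, and 1 Polycomb gene with no filter (67 to 2159, and 0 to 3). Leaving out 1 library gave 7 to 8 and 4791 to 7008 for the KO first step, 7 to 9 and 5495 to 7385 for WT, and 8 to 9 and 5560 to 7639 for the KO second step.

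Signs turned in 40 of 1670 alternative values of the 10 genes, 38 of them where neither fit passed. Under quantile normalization these were Ezh2 (-0.013), Eed (-0.011), Mtf2 (-0.0037) and Cbx2 (0.0067) at day 0, Suz12 in the KO first step (0.062) and Rnf2 in the WT second step (0.088). With GC and length trends removed they were Ezh2 (0.058), Rnf2 (0.050) and Cbx2 (-0.084) at day 6, and Rnf2 in the second step in KO (0.20), in WT (0.10) and in its interaction (0.10). Leaving out 1 library turned KO differences that had not passed, which then ran at day 0 from -0.16 to 0.18 for Ezh2, -0.027 to 0.053 for Eed, -0.16 to 0.23 for Mtf2, -0.087 to 0.084 for Cbx2 and -0.030 to 0.038 for Pcgf6, and at day 3 from -0.10 to 0.019 for Jarid2, -0.059 to 0.13 for Mtf2, -0.10 to 0.039 for Cbx2 and -0.13 to 0.0062 for Pcgf6. It also turned the WT second step of Rnf2 (-0.075 to 0.067) and interactions of the first step (Ezh2 -0.063 to 0.28, Ezh1 -0.15 to 0.077, Mtf2 -0.19 to 0.20, Rnf2 -0.033 to 0.16, Cbx2 -0.12 to 0.054 and Pcgf6 -0.14 to 0.0022).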
